A study of Mus musculus with 6 samples.

Results

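The genes described here were 5 type IV collagen chains (Col4a1, Col4a2, Col4a3, Col4a4 and Col4a5), 3 fibrillar collagen chains (Col1a1, Col1a2 and Col3a1), fibronectin (Fn1) and Cd93. They were chosen by symbol and made up 10 of the 28208 genes that the tables of all 6 mouse kidneys share, and all 10 were present. Naive kidneys were untransplanted kidneys of male C57BL/6 (B6) mice aged 10 to 12 weeks. Rejecting kidneys were BALB/c kidneys, from male or female donors aged 6 to 7 weeks, placed in male B6 recipients whose own kidneys had both been removed. The grafts were taken on day 15 after transplantation. Tolerized kidneys were the same kind of graft, also taken on day 15, in recipients that had received infusions of donor BALB/c splenocytes treated with ethylenecarbodiimide (ECDI-SP) before and after the transplantation. Single cells of each kidney were profiled by droplet sequencing with unique molecular identifiers (UMIs), and each group held 2 kidneys. Strain, age and transplantation all differed between the kidney tissue of naive mice and of grafts, so their parts in a difference from naive cannot be told apart. For myeloid cells the paper reports, from flow cytometry of separate grafts, that nearly all came from the recipient. Graft macrophages and monocytes would thus share the strain of the naive kidneys, and the donor age would not apply to them. Their origin was not tested here, and the age of the recipients is not given. The deposited tables differed too, with 28692 genes listed for each naive kidney and 31053 for each graft. Any part of library preparation or upstream processing cannot be told apart from the rest either. The grafts shared donor strain, donor age range, transplantation and the number of listed genes with each other. The rejecting and tolerized kidneys differed in the ECDI-SP treatment, and the paper does not give the donor sex of each graft.

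Type IV collagen forms the network of basement membranes, the thin sheets under epithelium and around capillaries. Its chains assemble in threes: the chains of Col4a1 and Col4a2 combine in nearly every basement membrane, whereas those of Col4a3, Col4a4 and Col4a5 combine in the glomerular and some tubular basement membranes, and loss of any of these causes Alport syndrome. Col1a1, Col1a2 and Col3a1 encode the fibril-forming collagens of connective tissue, made mainly by fibroblasts and related stromal cells. Fn1 encodes fibronectin, a glycoprotein that integrins bind and that is deposited in provisional matrix during repair. Cd93 encodes a transmembrane C-type lectin-like receptor of endothelial and myeloid cells, which in endothelium binds Mmrn2 and takes part in the assembly of fibronectin.

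The type IV genes lie in head-to-head pairs, and the DNA between or across their starts is shown because the pairs behaved differently in these cells. In GRCm38 (mm10, GENCODE vM21), Col4a1 occupies chromosome 8 from 11198423 to 11312826 on the minus strand and Col4a2 from 11312805 to 11449287 on the plus strand. Their first exons overlap over the 22 bases at chr8:11312805-11312826, and Col4a4 (chromosome 1, 82448423 to 82586849, minus strand) and Col4a3 (chromosome 1, 82586921 to 82722059, plus strand) are separated by the 71 bases at chr1:82586850-82586920. The stretches, read from the RefSeq promoter sequences of the same build, are given 5′ to 3′ on the plus strand for the first and on the minus strand for the second, with capitals marking a GGGCGG match.
Col4a1 and Col4a2, overlap: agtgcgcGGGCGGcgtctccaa
Col4a4 and Col4a3, gap: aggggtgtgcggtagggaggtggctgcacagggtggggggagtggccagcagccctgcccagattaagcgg
The overlap is 72.7% G and C and the gap 69.0%. The 300-base promoter windows (250 bases before to 50 after the start) were present for 6 of the 10 genes, and GGGCGG, searched on both strands, was found once in that of Col4a1, 3 times in that of Col4a2 and not in that of Col4a4. That motif occurs in 35.7% of all 32851 windows of the same length, so a match is a description only. Col4a5 lies on the X chromosome from 141475385 to 141689234, Col1a1 on chromosome 11 from 94936224 to 94953042, Col1a2 on chromosome 6 from 4504814 to 4541544, Col3a1 on chromosome 1 from 45311538 to 45349706, Fn1 on chromosome 1 from 71585520 to 71653200 and Cd93 on chromosome 2 from 148436640 to 148443563.

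The deposited tables held 34874702 to 96803926 UMIs per kidney. After filtering, 49797 cells remained, and 45667 after cells called doublets (6.82 to 10.7% of each kidney) were left out; the median was 2473 to 7075.5 UMIs per cell. Clusters were named from marker genes, so proximal tubule, endothelium and the like stand for proximal tubule-like and endothelium-like cells. Naive cells had median mitochondrial shares of 25.4 and 25.0%, against 5.46 to 13.5% in the grafts, and the lowest UMI count of a kept cell was 1342 or more in naive kidneys and 500 to 502 in the grafts. The 2 naive kidneys shared 56 cell barcodes, pairs of grafts 13 to 29, and pairs of a naive kidney and a graft 0 to 2. The cause of this pattern was not tested. Levels are in CPM, the UMIs of a gene divided by all UMIs of the cells of a class in 1 kidney and multiplied by 1000000. Counting intervals cover counting error only. The edgeR p-values set a group difference against a variation estimated from 2 kidneys per group, pooled over the groups and moderated across genes. Shares of cells with a UMI are also given with every cell thinned to 1000 UMIs, which left out no naive cell and, by graft, 18 to 75 shallower cells in proximal tubule, 2 to 17 in endothelium and 1 to 51 in macrophage/monocytes. The median proximal tubule cell held 3315 and 3367 UMIs in the naive kidneys and 4567 to 11614 in the grafts, and the median endothelial cell 2102 and 2525 against 4619 to 6510. Levels in T cells, which should not make collagen, serve as the background from free RNA. Naive kidneys held few T cells, in which Col4a5 was 0 CPM in 1 kidney and 15.7 in the other. A level of 0 there thus bounds the free RNA of naive kidneys only loosely.

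Each comparison was tested by edgeR's quasi-likelihood test on UMI sums per kidney and class, in 8 classes, with Benjamini-Hochberg adjustment (FDR) over all genes of the class. Of 41 pairs of a member and a class with enough UMIs, 7 passed FDR 0.05 between rejecting and naive kidneys (6 higher, 1 lower), where 19.7% of all gene and class pairs passed. Between tolerized and naive kidneys 6 passed, all higher, against 15.4% of all pairs. Between tolerized and rejecting kidneys none of the 41 passed by edgeR, where 0.101% of all pairs passed. An unadjusted p under 0.05 (edgeR) was found for 8 of the 41 and for 6056 of all 79832 pairs. DESeq2 called 2 of the 41, for which no share over all pairs is given. The members' shares past FDR 0.05 by edgeR were thus near the background. The calls lay in 4 classes: endothelium, proximal tubule, distal convoluted tubule and intercalated cells. Col1a1, Col1a2 and Col3a1 passed the filter on low counts in no class. The comparisons with naive share the same naive kidneys. By class, the share of all genes called between rejecting and naive kidneys was 41.7% in proximal tubule, 17.4% in loop of Henle, 23.9% in distal convoluted tubule, 17.7% in principal cells, 8.48% in intercalated cells, 16.7% in endothelium, 14.1% in macrophages and 8.32% in macrophage/monocytes. Between tolerized and naive kidneys it was 32.3, 12, 20.9, 17.7, 6.55, 13.1, 9.45 and 3.72% in the same order.

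**Figure D1:**
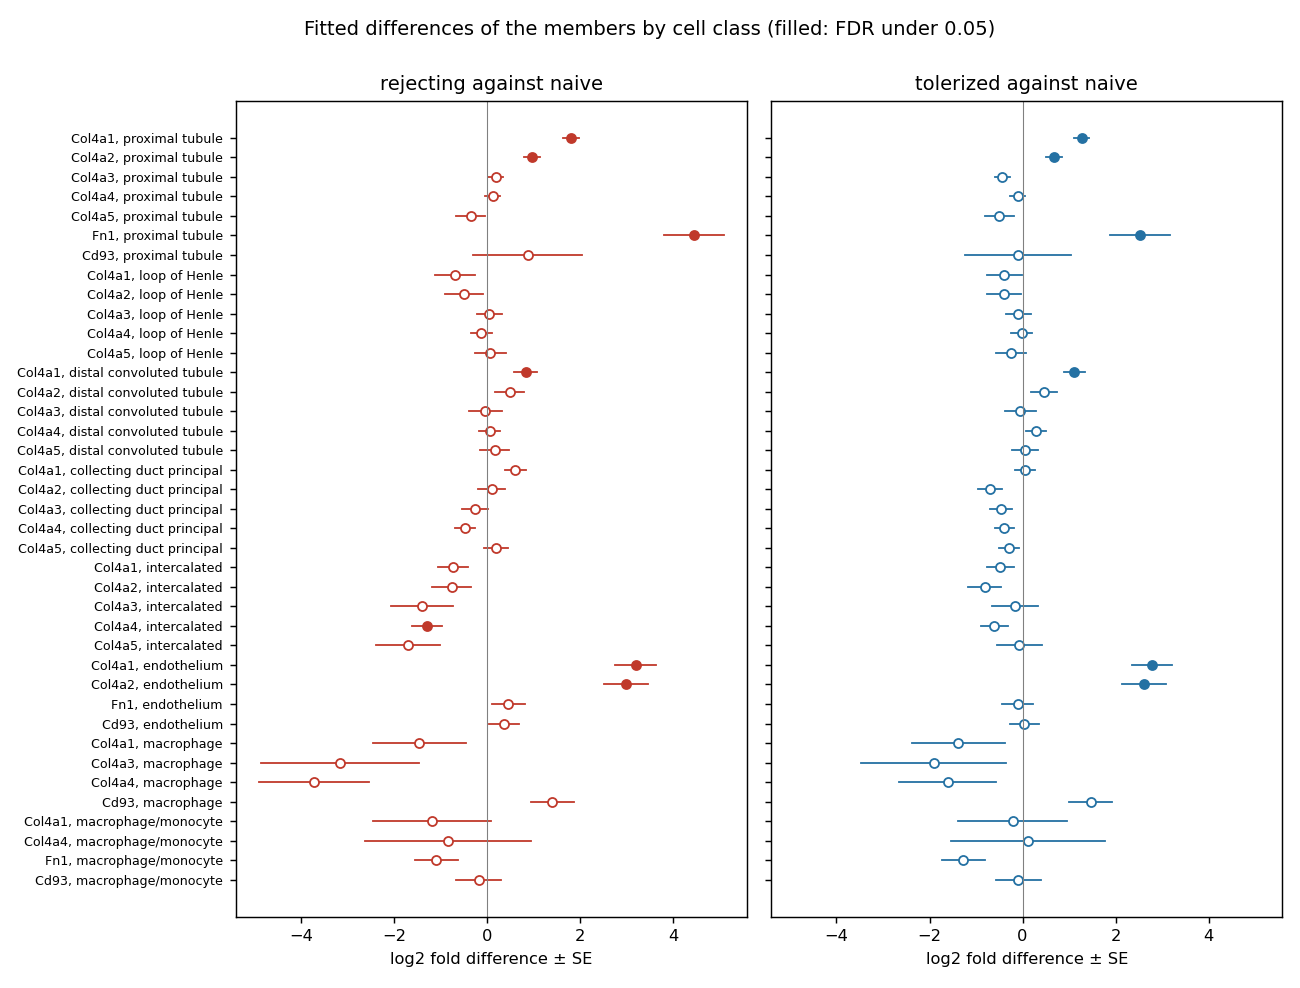
Fitted log2 fold difference ± standard error (x axis) of each member and class tested (rows) in rejecting against naive kidneys (left) and tolerized against naive kidneys (right), 2 kidneys per group, with filled points at FDR under 0.05 and pairs with no UMI in a group left out. Filled points lie at Col4a1 and Col4a2 in proximal tubule and endothelium, Fn1 in proximal tubule and Col4a1 in distal convoluted tubule in both panels, and Col4a4 in intercalated cells on the left.

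Col4a1 and Col4a2 were higher in the endothelium of grafts than of naive kidneys. Col4a1 stood at 93.6 and 144 CPM for naive kidneys, 1061 and 1215 for rejecting and 1255 and 449.5 for tolerized kidneys. Every graft was above both naive kidneys, and tolerized 2 was the lowest graft. The fitted log2 difference was 3.20 ± 0.44 (SE, n = 2 per group; FDR 0.0015, edgeR) for rejecting and 2.79 ± 0.43 (FDR 0.0032, edgeR) for tolerized kidneys. Of all genes in endothelium, 8.45% were called higher and 8.22% lower in rejecting, and 6.85% higher and 6.26% lower in tolerized kidneys. These sums came from 269, 237, 115, 45, 207 and 223 endothelial cells, in the order naive 1 and 2, rejecting 1 and 2, tolerized 1 and 2, and from 70 to 2027 Col4a1 UMIs.

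Col4a2, the partner chain, followed in the same cells. It measured 62.9 and 103 CPM for naive, 664 and 718 for rejecting and 803 and 249 for tolerized endothelium. Its log2 difference from naive was 2.99 ± 0.48 (FDR 0.0034, edgeR) in rejecting and 2.60 ± 0.47 (FDR 0.0067, edgeR) in tolerized kidneys. Without naive 1, Col4a1 in tolerized kidneys and Col4a2 in both groups of grafts no longer passed, and without naive 2 Col4a2 in tolerized kidneys did not. Of the UMIs of both genes together, Col4a1 made up 58.2 to 64.4% in the endothelium of every kidney, so the chains kept nearly the same ratio. The share of endothelial cells with a Col4a1 UMI was 21.6 and 37.6% for naive kidneys, 83.5 and 93.3% for rejecting and 88.9 and 75.3% for tolerized kidneys. With each cell thinned to 1000 UMIs, these shares were 8.63 and 13.5%, 60.1 and 62.8%, and 65.3 and 36.8%. In T cells the share was 0 to 2.00%, and the naive value of 0 came from few cells.

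Endothelium held a cluster led by Fabp4 and Cldn5, present in all kidneys (45 to 220 cells each), and a cluster led by Plat and Ehd3 with 160 cells in naive 1, 145 in naive 2 and 0 to 3 in each graft. Col4a1 was 115 and 159 CPM in the Plat-led cells of the naive kidneys. Within the Fabp4-led cluster alone it was 75.7 and 133 for naive, 1061 and 1215 for rejecting and 1255 and 451 for tolerized kidneys, so the difference was as large without the Plat-led cells (log2 3.35 ± 0.46, FDR 9.0e-04 for rejecting, edgeR). Markers of proximal tubule summed to 1403 and 2092 CPM in naive and 43.5 to 486 in graft endothelium, and markers of T cells to 12.0 and 5.62 for naive, 208 and 190 for rejecting and 18.0 and 20.7 for tolerized kidneys; their part in the result was not tested. Markers of stroma, the class with comparable Col4a1 levels, summed to 118 and 59.6 in naive and 79.5 to 116 in graft endothelium.

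In proximal tubule, the largest epithelial class (1091 to 4823 cells per kidney), both chains were also higher in grafts. Col4a1 stood at 16.0 and 18.3 CPM for naive, 77.8 and 85.1 for rejecting and 52.9 and 45.9 for tolerized kidneys. The groups did not overlap, and the tolerized kidneys lay between the others. The log2 difference from naive was 1.80 ± 0.16 (FDR 1.1e-04, edgeR) in rejecting and 1.27 ± 0.16 (FDR 7.8e-04, edgeR) in tolerized kidneys, in a class in which 22.6 and 17.1% of all genes were called higher and 19.2 and 15.2% lower. Tolerized against rejecting, the difference of -0.53 ± 0.16 had an unadjusted p of 0.0088 and did not pass adjustment (FDR 0.258, edgeR). In that comparison 0 of 12625 proximal tubule genes passed, and 1399 had an unadjusted p under 0.05 (edgeR).

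Col4a2 in proximal tubule was 13.8 and 14.2 for naive, 35.9 and 38.9 for rejecting and 31.5 and 22.5 CPM for tolerized kidneys. Its log2 differences were smaller than those of Col4a1, at 0.97 ± 0.18 (FDR 0.0033, edgeR) and 0.68 ± 0.17 (FDR 0.018, edgeR), the second lost without naive 1, without naive 2 and without tolerized 1. Col4a1 made up 53.7 and 56.3% of the UMIs of the pair in naive proximal tubule, 68.4 and 68.7% in rejecting and 62.7 and 67.1% in tolerized. The share of proximal tubule cells with a Col4a1 UMI was 6.30 and 6.96%, 31.6 and 31.8%, and 31.1 and 37.5% in naive, rejecting and tolerized kidneys, and 1.34 and 1.61%, 7.00 and 7.43%, and 4.46 and 4.14% after thinning. The summed endothelial markers in proximal tubule, 6.16 to 16.9 CPM, did not separate the groups.

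Naive and graft proximal tubule cells fell largely into different clusters. Col4a1 was 7.30 to 28.6 CPM in the 4 clusters that held most naive cells and 22.6 to 106 in the 5 that held most graft cells. Only a Cyp7b1-led cluster held at least 10 cells of every kidney, and there Col4a1 was 37.2 and 30.5 for naive, 79.7 and 99.4 for rejecting and 55.5 and 77.5 for tolerized kidneys. The proximal tubule gene Slc34a1 was low in this cluster, at 569 and 509 for naive, 21.7 and 0 for rejecting and 61.4 and 185 for tolerized kidneys. In the whole class Slc34a1 was 2480 to 3144. In endothelium it was 404 and 440 for naive, 46.4 and 21.8 for rejecting and 38.4 and 103 for tolerized kidneys. The part of free RNA in the Slc34a1 values of the cluster was not tested. Lrp2, also a proximal tubule gene, was 707 to 1348 in the cluster and 708 to 1475 in the whole proximal tubule class. In a fit over clusters present in every kidney, the differences were 1.14 (FDR 0.080) and 0.75 (FDR 0.208), no longer past the threshold by edgeR.

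The other tubular segments were read in the same way. In distal convoluted tubule Col4a1 was 14.7 and 14.5 CPM for naive, 34.2 and 26.2 for rejecting and 32.7 and 39.1 for tolerized kidneys, with log2 differences of 0.83 ± 0.26 (FDR 0.037, edgeR) and 1.11 ± 0.23 (FDR 0.0067, edgeR). Of all genes there, 12.8 and 11.5% were called higher. Either call was lost without naive 1, without naive 2 and with coarser clusters, that for rejecting kidneys also without rejecting 1 and by DESeq2, and that for tolerized kidneys also without tolerized 2. In principal cells of the collecting duct, which reabsorb water and sodium, Col4a1 was already 91.8 and 111 in naive kidneys, with 185 and 149 in rejecting and 124 and 93.9 in tolerized (FDR 0.086 for rejecting, edgeR). In loop of Henle Col4a1 was 14.6 and 20.1 for naive, 14.8 and 8.10 for rejecting and 10.9 and 15.9 for tolerized kidneys, and no test passed. In intercalated cells, which handle acid and base, it was 78.1 and 61.1 for naive, 44.6 and 47.4 for rejecting and 48.6 and 59.8 for tolerized kidneys (log2 -0.73 for rejecting, FDR 0.183, edgeR). Col4a2 stayed between 6.53 and 45.8 CPM in these 4 segments, and none of its tests there passed.

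**Figure D2:**
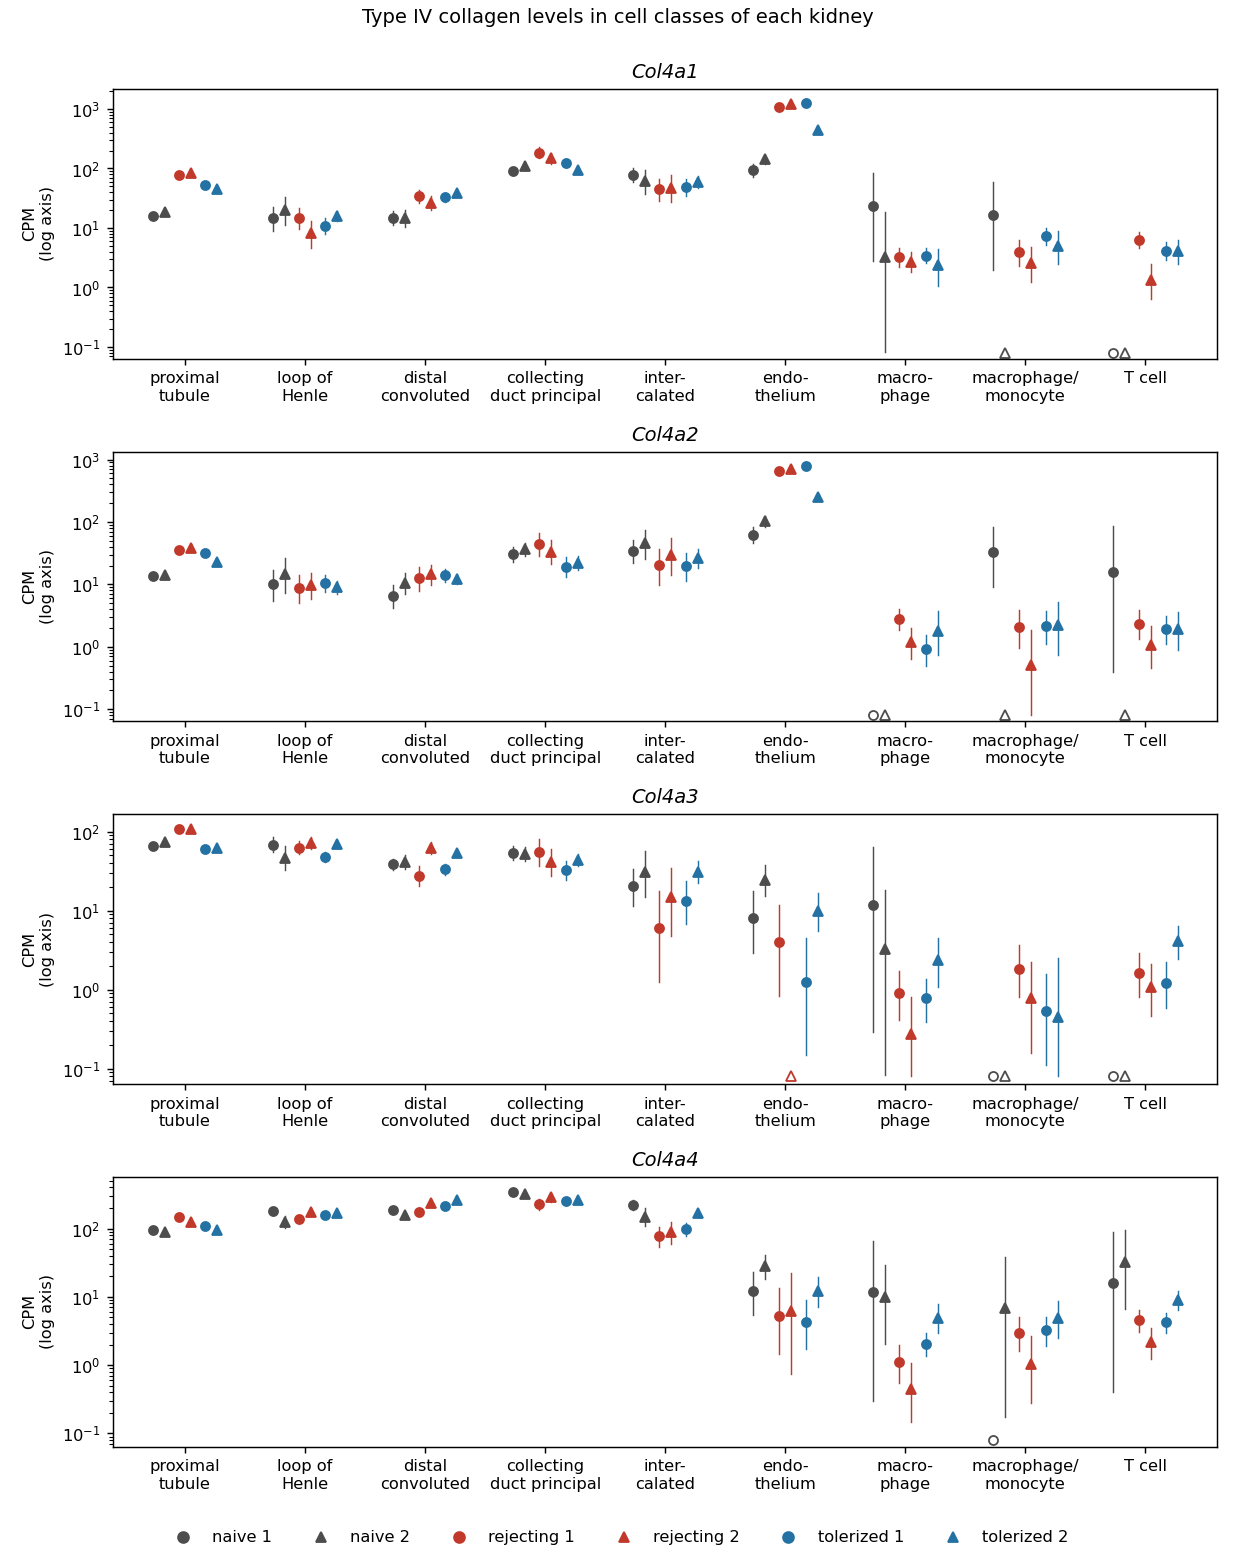
CPM (log axis) of Col4a1, Col4a2, Col4a3 and Col4a4 in 9 cell classes of each kidney, with circles for replicate 1, triangles for replicate 2, colours for the groups, lines for 95% exact Poisson intervals and open symbols at the base for no UMI. Col4a1 and Col4a2 peak in graft endothelium, whereas Col4a3 and Col4a4 are highest in tubular segments. In endothelium Col4a4 lies near the T cell level in every group, and Col4a3 does so in the rejecting kidneys. Naive kidneys held few T cells.

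The pair Col4a3 and Col4a4 showed a different distribution. Both were high in podocytes, the glomerular epithelium that builds the filter, where Col4a3 reached 221 to 1109 and Col4a4 294 to 958 CPM, but only 10 podocytes were found (3, 3, 1 and 3 cells in naive 1, naive 2, rejecting 1 and tolerized 2), too few for a comparison. Of these kidneys, Col4a3 was higher in podocytes than in any named tubular segment in all 4. Col4a4 was so in all but naive 2, where principal cells held 318. Among the named tubular segments Col4a4 was highest by group mean in principal cells. It was 345 and 318 for naive, 228 and 288 for rejecting and 249 and 264 CPM for tolerized kidneys. Sub-clusters led by Aqp1 and Cryab, left unnamed (147 cells over 6 kidneys), held 205 to 394 CPM of Col4a4 and 56.0 to 313 of Col4a3. In proximal tubule Col4a4 was 94.8 and 88.2 for naive, 148 and 124 for rejecting and 109 and 95.2 for tolerized kidneys. Principal cells lay above proximal tubule in every kidney.

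Col4a3 measured 66.0 and 73.4 CPM for naive, 108 and 107 for rejecting and 59.97 and 62.4 for tolerized proximal tubule, and 53.3 and 52.4, 55.0 and 41.1, and 32.3 and 44.0 in principal cells. In proximal tubule the rejecting kidneys were above both other groups, but the fitted log2 difference from naive was 0.18 ± 0.16 (FDR 0.388, edgeR), with libraries scaled by trimmed means (TMM). With library totals alone the difference was 0.63 and passed, and that of Col4a4 was 0.57 and passed, while the median of all genes moved from 0.06 to 0.51. Tolerized against rejecting, Col4a3 differed by -0.61 (unadjusted p 0.0042, FDR 0.216, edgeR). Col4a3 made up 35.6 to 46.5% of the UMIs of the pair in proximal tubule and 11.5 to 19.4% in principal cells.

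Col4a4 in intercalated cells was the 1 member called lower. It was 222 and 150 CPM for naive, 77.0 and 88.8 for rejecting and 97.3 and 167 for tolerized kidneys, from 28 to 91 cells each. Both rejecting kidneys were below both naive kidneys, and tolerized 2 lay within the naive range. The log2 difference was -1.30 ± 0.33 (FDR 0.026, edgeR) for rejecting and -0.60 ± 0.29 (FDR 0.25) for tolerized kidneys, where 3.94% of all genes were called lower in rejecting kidneys, and the first was lost without naive 1, without rejecting 1 and by DESeq2. Col4a5, whose chain joins the other pair, was lower in the named tubular segments. It was 27.3 to 41.1 in principal cells, 15.4 to 25.9 in loop of Henle, 5.92 to 23.5 in intercalated cells and 5.61 to 10.5 in proximal tubule. None of its tests passed. The unnamed Aqp1- and Cryab-led sub-clusters held 35.5 to 78.2 CPM of Col4a5. In endothelium Col4a3 was 0 to 24.7, Col4a4 4.33 to 28.1 and Col4a5 0 to 2.65.

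Among the classes tested, Fn1 was highest in a part of the macrophage/monocytes. The class as a whole measured 499.5 and 328 CPM for naive, 162 and 223 for rejecting and 257 and 73.6 for tolerized kidneys. All grafts lay below both naive kidneys, but the log2 differences of -1.10 ± 0.46 (FDR 0.168, edgeR) and -1.27 ± 0.46 (FDR 0.149, edgeR) did not pass. The naive sums rested on 43 and 49 cells and 61 and 48 Fn1 UMIs. A cluster led by Chil3, a chitinase-like protein of monocytes and alternatively activated macrophages, and with Fn1 itself among its leading genes, carried the signal at 583 and 520.5 for naive, 204 and 271 for rejecting and 343 and 118 for tolerized kidneys, from 26 to 529 cells. A cluster led by Ear2, Treml4 and Ace, genes of patrolling monocytes, held 0 to 12.5 Fn1 CPM. The class-wide share of cells with an Fn1 UMI was 46.5 and 30.6%, 20.98 and 27.7%, and 32.5 and 15.5%, and 28.8 and 17.3%, 10.7 and 13.2%, and 14.3 and 5.54% after thinning.

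In proximal tubule Fn1 was very low in naive kidneys and higher in grafts. It stood at 0.334 and 0.728 CPM for naive, 11.5 and 19.3 for rejecting and 5.64 and 1.63 for tolerized kidneys, from 7, 11, 164, 141, 198 and 59 UMIs. T cells held 0 in both naive kidneys, from few cells, and 0.214 to 1.62 in the grafts. The groups did not overlap, and tolerized 2 was the graft nearest to naive. The log2 difference from naive was 4.45 ± 0.64 (FDR 0.0011, edgeR) in rejecting and 2.53 ± 0.65 (FDR 0.018, edgeR) in tolerized kidneys. The second was lost without naive 1, without naive 2 and without tolerized 1. The share of cells with an Fn1 UMI was 0.145 and 0.293%, 4.73 and 6.05%, and 3.90 and 1.21%, and 0.0244 and 0.0869%, 1.20 and 1.34%, and 0.476 and 0.128% after thinning.

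Tolerized against rejecting, Fn1 in proximal tubule differed by -1.91 ± 0.50 on the log2 scale, with an unadjusted p of 0.0042 and FDR 0.217 by edgeR, and an adjusted p of 0.038 by DESeq2. Without tolerized 1 the edgeR difference was -2.93 (FDR 0.033), and over clusters present in every kidney -1.02 (FDR 0.862). Macrophage markers in the same cells summed to 10.5 and 19.3 CPM for naive, 214 and 68.6 for rejecting and 51.2 and 18.5 for tolerized kidneys, monocyte markers to 48.0 and 65.1, 257 and 226, and 186 and 119, and markers of injured tubule to 69.8 and 61.3, 346 and 353, and 267 and 123. Their part in the Fn1 difference was not tested.

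The Cyp7b1-led cluster held 0, 9.09, 17.1, 21.3, 24.7 and 52.5% of the proximal tubule Fn1 UMIs of naive 1, naive 2, rejecting 1, rejecting 2, tolerized 1 and tolerized 2, with 0.581 to 2.51% of the cells. This cluster was low in Slc34a1, as given above. Its Fn1 level was 0 and 2.35 CPM for naive, 101 and 213 for rejecting and 47.7 and 104 for tolerized kidneys. Naive 1 had no Fn1 UMI among 68 cells and naive 2 had 1 among 94, whereas 11 of 35 and 8 of 18 cells in rejecting and 25 of 75 and 6 of 13 cells in tolerized kidneys had at least 1. In tolerized 2, a single cell held 16 of the 31 UMIs. Outside the cluster Fn1 was 9.75 and 15.5 for rejecting and 4.37 and 0.780 for tolerized kidneys, against 0.681 in naive 2. Tolerized 2 was thus close to naive 2. All 7 Fn1 UMIs of naive 1 lay outside the cluster, in a class that held 0.334 CPM as a whole.

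Proximal tubule cells with a UMI of Havcr1, the injury marker KIM-1, were compared with those without. Fewer than 10 such cells were found in either naive kidney, and 206, 163, 527 and 135 in rejecting 1, rejecting 2, tolerized 1 and tolerized 2. Fn1 was 29.3 against 8.31 CPM in rejecting 1, 46.1 against 10.3 in rejecting 2, 12.2 against 3.37 in tolerized 1 and 10.3 against 0.675 in tolerized 2. It was higher with Havcr1 in 4 of 4 grafts, by a mean log2 difference of 2.45 ± 1.00 (SD, n = 4; exact two-sided permutation test of signs, p = 0.125, the smallest this design allows). Thinned to 1000 UMIs, cells with Fn1 were again more frequent in 4 of 4. Col4a1 was higher in 2 of 4 grafts, with 89.3 against 75.7, 80.2 against 86.8, 55.9 against 51.9 and 42.6 against 46.2 (mean log2 0.03; exact two-sided permutation test, p = 0.875). After thinning, the share of cells with Col4a1 was higher with Havcr1 in 4 of 4 grafts. It was 8.35 against 6.85%, 8.44 against 7.25%, 5.19 against 4.32% and 4.30 against 4.13%. Col4a2 was higher with Havcr1 in 1 of 4 grafts (mean log2 -0.14) and with Vcam1 in 4 of 4 (mean log2 0.27). Col4a3 was 116 against 106, 117 against 104, 73.8 against 55.2 and 68.0 against 61.8 CPM with and without Havcr1. In tolerized 2 its share of cells after thinning was lower with Havcr1, at 6.37 against 6.57%. With and without Vcam1, Col4a3 was 97.4 against 112, 104 against 109, 62.2 against 59.4 and 56.3 against 63.1 CPM. It was thus lower with Vcam1 in every graft but tolerized 1. Split by Vcam1, an adhesion molecule of injured tubule, Col4a1 was higher with the marker in 4 of 4 grafts, by 1.27 to 1.68 times (mean log2 0.55; exact two-sided permutation test, p = 0.125, again the smallest possible). Fn1 was higher by 2.17 to 4.58 times in 4 of 4 (mean log2 1.69; exact two-sided permutation test, p = 0.125).

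No test of endothelial Fn1 passed without called doublets. It was 41.5 and 46.1 CPM for naive, 79.5 and 37.3 for rejecting and 39.0 and 44.2 for tolerized kidneys, and the kidneys of the groups overlapped (log2 0.45 ± 0.36, FDR 0.413, edgeR, for rejecting, and -0.10 for tolerized). With called doublets kept, the difference for rejecting kidneys was 1.39 ± 0.37 (FDR 0.029, edgeR). In macrophages Fn1 was 1.41 and 22.7 for rejecting and 13.1 and 7.81 for tolerized kidneys. Naive macrophages held no Fn1 UMI in 35 and 99 cells, which allows up to 34.8 and 9.93 CPM (3 counts per library), so no fold is given.

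**Figure D3:**
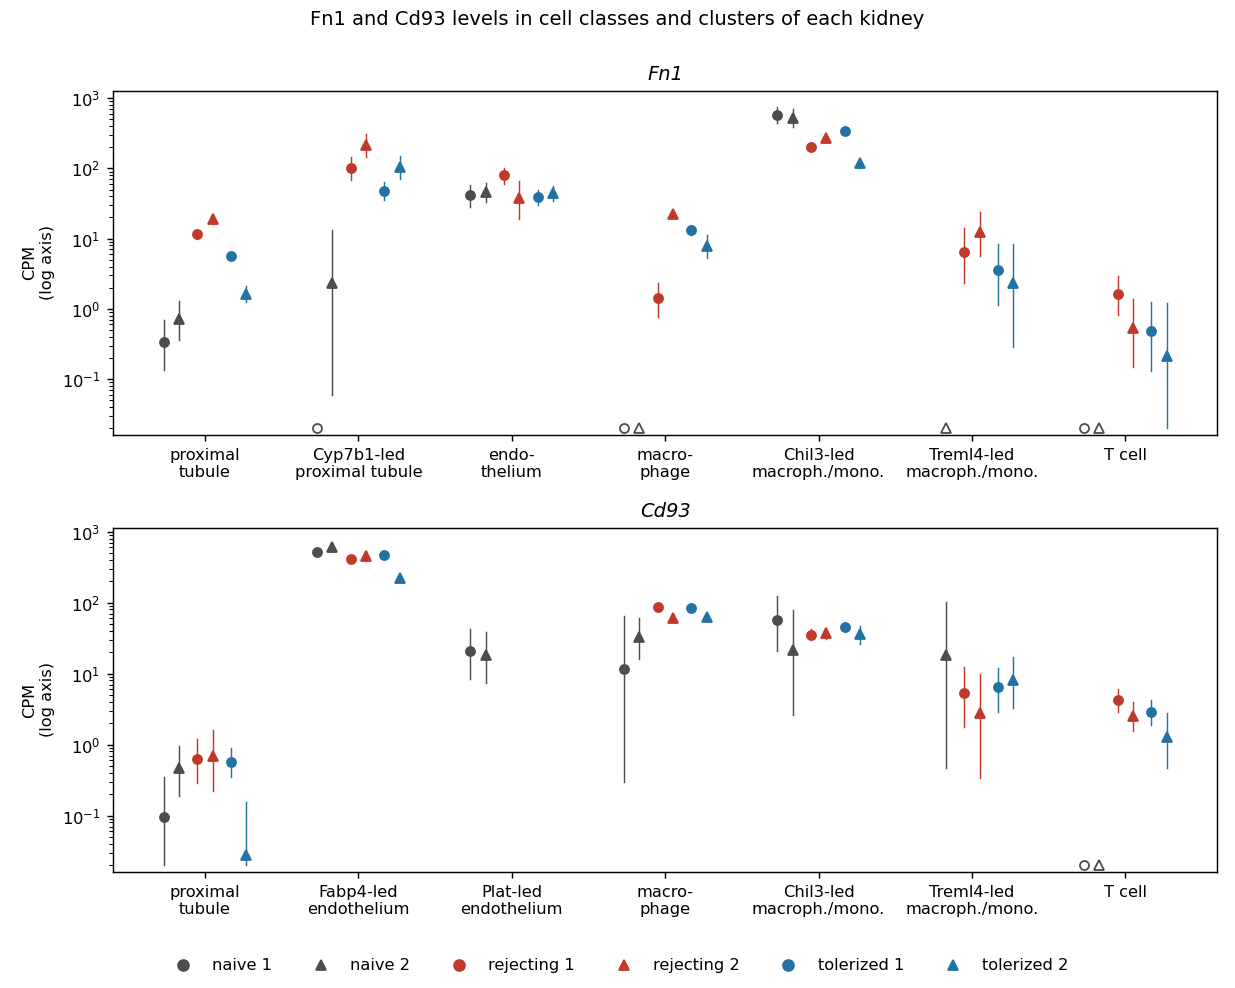
CPM (log axis) of Fn1 (top) and Cd93 (bottom) in cell classes and clusters with at least 10 cells, by kidney, with circles for replicate 1, triangles for replicate 2, lines for 95% exact Poisson intervals and open symbols for no UMI. Fn1 is highest in the Chil3-led cells and rises from naive to graft kidneys in proximal tubule, and Cd93 is highest in the Fabp4-led endothelium of every kidney.

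Cd93 was highest in endothelium. It measured 294 and 352 CPM for naive, 407 and 460.0 for rejecting and 461 and 219.7 for tolerized kidneys, and neither difference from naive passed (log2 0.36 ± 0.32, FDR 0.467, and 0.04 ± 0.31, FDR 0.954, edgeR). The Fabp4-led cluster carried it, at 520.1 and 598 for naive, 407 and 460.0 for rejecting and 461 and 221 for tolerized kidneys, while the Plat-led cells of the naive kidneys held 20.7 and 18.5. Within the Fabp4-led cluster every graft was below both naive kidneys, but the log2 differences of -0.45 ± 0.32 (FDR 0.362, edgeR) and -0.78 ± 0.32 (FDR 0.116, edgeR) did not pass. The direction for rejecting kidneys thus changed with the Plat-led cells included or not. The share of endothelial cells with a Cd93 UMI was 28.3 and 29.96%, 51.3 and 64.4%, and 68.1 and 29.1%, and 14.9 and 14.9%, 26.2 and 28.4%, and 30.8 and 12.1% after thinning.

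Macrophages were the other source of Cd93. They held 11.6 and 33.1 CPM for naive, 86.5 and 61.6 for rejecting and 84.7 and 62.2 for tolerized kidneys, against 0 to 4.27 in T cells. Every graft lay above both naive kidneys, whose values rest on 1 and 10 UMIs. The log2 differences of 1.40 ± 0.47 (unadjusted p 0.011, FDR 0.065) and 1.46 ± 0.47 (FDR 0.072) did not pass adjustment by edgeR. Naive and graft macrophages lay mostly in different clusters: a Ccl8-led cluster held 248 to 1148 cells in each graft and 2 and 1 in the naive kidneys, with Cd93 at 62.6 to 88.8 in the grafts. In the cluster shared by all kidneys (19 to 260 cells) Cd93 was 22.3 and 21.2 for naive, 39.4 and 26.7 for rejecting and 46.2 and 22.6 for tolerized kidneys. The macrophage/monocyte class held 20.5 to 49.1 in every kidney, and its groups overlapped.

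The classes that held most Cd93 UMIs differed between naive kidneys and grafts. Endothelium held 94.0 and 93.2% of them in naive kidneys and 14.3 to 46.6% in grafts, and macrophages 0.427 and 2.98% in naive and 36.2 to 65.5% in grafts. Endothelium was 4.03 and 4.23% of the cells in naive and 0.598 to 3.49% in grafts, and macrophages 0.524 and 1.77% in naive and 5.02 to 17.1% in grafts. Macrophage/monocytes held 42.1 to 74.1% of the Fn1 UMIs in every kidney, and proximal tubule 36.4 to 49.3% of those of Col4a1. These shares describe dissociated cells.

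The fibrillar collagens were sparse apart from a few stromal cells of 1 rejecting kidney. Over all kept cells, Col1a1 gave 4 and 3 UMIs for naive, 10 and 602 for rejecting and 28 and 22 for tolerized kidneys, Col1a2 gave 26 and 10, 28 and 474, and 44 and 22, and Col3a1 gave 11 and 1, 6 and 639, and 35 and 18. Rejecting 2 stood far above the other 5 kidneys for all 3 genes. In that kidney, 13 cells of a Dcn-led sub-cluster held 561 of the 602 Col1a1 UMIs (93.2%, exact 95% interval 90.9 to 95.1%), 429 of 474 for Col1a2 (90.5%) and 600 of 639 for Col3a1 (93.9%). A single cell held 248 of the Col1a1 UMIs.

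All 13 cells were called doublets and are absent from the class sums. Dcn, the fibroblast proteoglycan decorin, was found in 9 of them with 424 UMIs, Timp1 in 8, Pdgfra in 5 and Pdgfrb in 5, whereas Pecam1, Kdr and Cd3e were found in none, Ptprc in 2, Slc34a1 in 3, C1qa in 3 and Lrp2 in 1. These cells also held 246 of that kidney's 1750 Fn1 UMIs (14.1%) and 135 of its 1970 Col4a1 UMIs (6.85%). Without called doublets, Col1a1 was 4 and 3, 9 and 27, and 17 and 20 UMIs, Col1a2 26 and 6, 18 and 28, and 26 and 21, and Col3a1 11 and 1, 5 and 19, and 20 and 18. The excess of rejecting 2 was then much smaller. Relative to all UMIs, rejecting 2 was still the highest kidney for Col1a1 (0.652 CPM, median of the kidneys 0.200) and Col3a1 (0.458, median 0.240), but not for Col1a2. Its share of cells with a UMI was the highest for Col1a1, Col1a2 and Col3a1, at 0.319, 0.359 and 0.239%. These values rest on few UMIs, and 1 rejecting kidney of 2 cannot stand for the group.

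**Figure D4:**
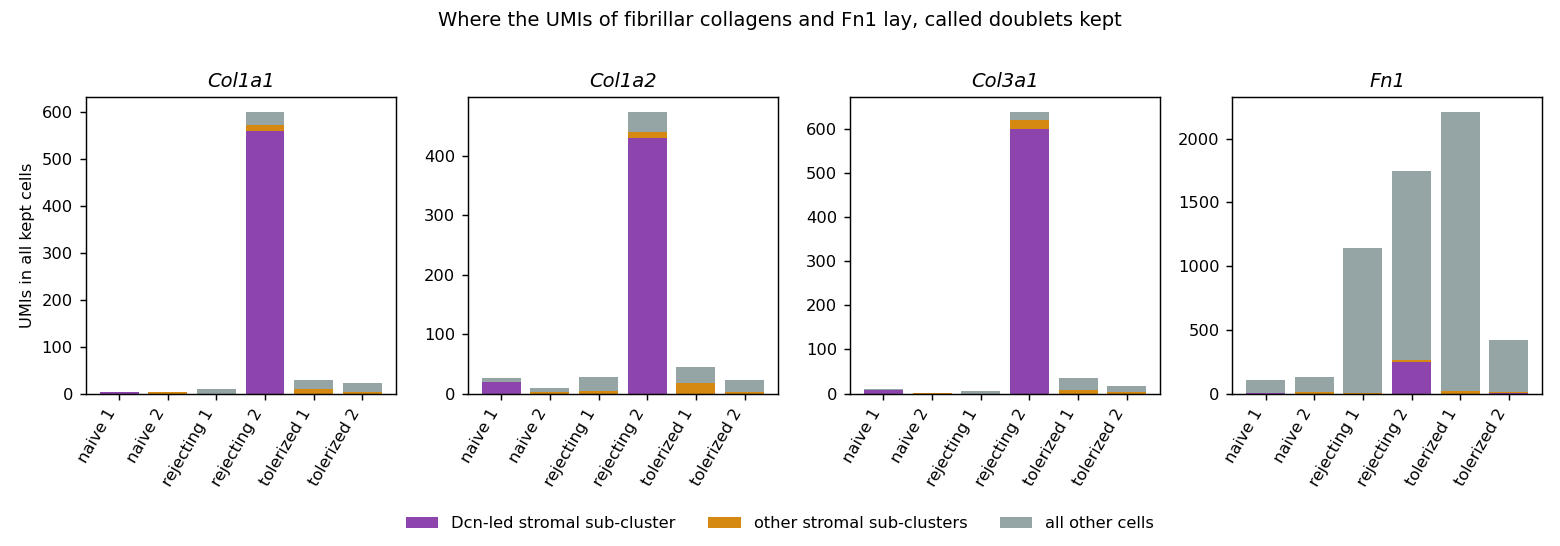
UMIs (y axis) of Col1a1, Col1a2, Col3a1 and Fn1 in all kept cells of each kidney, called doublets included, as stacked bars by where the cells lay. In rejecting 2, the Dcn-led cells hold 561 Col1a1, 429 Col1a2 and 600 Col3a1 UMIs, and other kidneys reach at most 28, 44 and 35.

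Stroma was too small for the main test: without called doublets it held 6 and 19 cells for naive, 1 and 1 for rejecting and 6 and 19 for tolerized kidneys. With called doublets kept it held 5 to 27 cells, and Col4a1 was 65.8 and 205 CPM for naive, 3001 and 820 for rejecting and 1469 and 535 for tolerized kidneys. Rejecting 1, with 5 cells, did not enter the fit, so the rejecting value rests on rejecting 2 alone, which is assumed to vary like the other groups. The log2 differences were 2.36 ± 0.60 (FDR 0.0089, edgeR) and 2.66 ± 0.54 (FDR 0.0012, edgeR). The naive cells were mostly an Acta2- and Rgs5-led, smooth muscle type sub-cluster, with Col4a1 at 83.1 and 224, and a Ptn-, Sfrp2- and Pdgfrb-led sub-cluster of the grafts, absent in naive kidneys, held 1309 to 4603 in 1 to 12 cells each. That graft sub-cluster had 6 stroma but also 5 endothelium markers, and 35.7% of it was called doublets. With coarser clusters, a sub-cluster led by the same genes had 7 endothelium and 6 stroma markers and was left unnamed. Fn1 in stroma with doublets kept was 32.9 and 148 for naive, 57.7 and 980.2 for rejecting and 157 and 80.2 for tolerized kidneys, and the value of rejecting 2 includes the Dcn-led cells.

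Genes that work with the members were read from 7 lists of 94 genes, whose counts are descriptions. Of 371 gene and class pairs tested, 85 were higher and 31 lower in rejecting than naive kidneys, 61 and 26 in tolerized against naive, and 0 and 3 in tolerized against rejecting. Of all gene and class pairs, 10.7% were higher and 9% lower in rejecting, and 8.28% higher and 7.07% lower in tolerized kidneys. In rejecting endothelium, 7 of 13 genes of network collagens and basement membrane were higher and none lower (median log2 1.30, all genes 0.01). In tolerized endothelium 7 were higher and 1 lower (median 1.23). Of all endothelial genes, 8.45% were higher and 8.22% lower in rejecting, and 6.85% higher and 6.26% lower in tolerized kidneys. Endothelial values of list genes, here and in the next paragraph, include the Plat-led cells, found almost only in naive kidneys. Values of single list genes without those cells are not given here. A fit over clusters present in every kidney left out the Plat-led cells, among other cells. In it 78, 63 and 4 of 291 list pairs over all classes passed, in the same order of comparisons. Neither the counts for endothelium alone nor the share over all genes in that fit are given here. These counts therefore do not show whether the endothelial list calls held without the Plat-led cells. Nid2, a nidogen that links laminin to type IV collagen, differed by 3.18 ± 0.35 (FDR 4.1e-04, edgeR) in rejecting and by 2.66 in tolerized kidneys. Lama4, the laminin chain of vascular basement membrane, differed by 2.20 ± 0.42 (FDR 0.0075, edgeR) and 1.87. Of matrix receptors, Itga1, whose product with Itgb1 binds type IV collagen, differed by 4.41 ± 0.39 (FDR 1.6e-04, edgeR) and 4.18, and Sdc4 by -3.31 and -2.08.

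Of 7 endothelial genes of the interstitial matrix tested, 1 was higher and 3 were lower in each comparison with naive kidneys, including Eln, the elastic fibre protein, at -1.93 and -2.04, and Fbln5 at -2.63 and -1.78. Among relatives and partners of Cd93, Clec14a, a lectin of the same family, differed in endothelium by -2.25 ± 0.53 (FDR 0.019, edgeR) in rejecting and by -2.91 ± 0.52 (FDR 0.0062, edgeR) in tolerized kidneys. Thbd, thrombomodulin, differed by -1.31 ± 0.25 in tolerized kidneys (FDR 0.0079, edgeR). C1qa and C1qb, which are macrophage genes, were 4.08 and 3.29 higher in rejecting endothelium, where macrophage markers summed to 264 and 68.4 CPM against 52.2 and 69.7 in naive; their part was not tested.

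In proximal tubule, 29 of 56 list genes were higher and 6 lower in rejecting kidneys (median 0.76, against 0.06 over all genes). In tolerized kidneys 20 were higher and 3 lower (median 0.59, against 0.05). Of all genes of the class, 22.6% were higher and 19.2% lower in rejecting, and 17.1% higher and 15.2% lower in tolerized kidneys. Matrix receptors accounted for 10 of 12 in rejecting and 6 of 12 in tolerized kidneys, with none lower. Cd44, the hyaluronan receptor, differed by 5.51 ± 1.16 (FDR 0.0061, edgeR) and 4.18, and Itga1 by 4.21 ± 0.18 and 4.10. Of synthesis genes, Plod2, which hydroxylates collagen lysines for crosslinking, differed by 1.88 and 1.49, and Pcolce, the enhancer of procollagen processing, by -2.65 and -2.35. Of turnover genes, Mmp14, a membrane metalloproteinase, differed by 3.15 and 2.39, and Plau, urokinase, by 3.07 and 2.03. Of TGF-beta genes, 4 of 7 were higher in rejecting and 3 in tolerized kidneys, including Smad7, an inhibitor of the pathway, at 1.38 and 1.07. The 3 pairs called between tolerized and rejecting kidneys were C1qa and C1qb in loop of Henle (log2 -3.05 and -3.50) and C1qa in intercalated cells (-4.62). Both are macrophage genes, as stated above for endothelium. Macrophage markers in T cells, the background class, summed to 639 and 133 CPM for rejecting grafts, against 74.7 and 42.4 for tolerized grafts. The part of free RNA or of macrophage RNA in these tubular calls was not tested.

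The genes most like each member were read over 75 class sums of 14 classes and 10810 genes with a mean of at least 5 CPM. The class sums share libraries and depth, so the Spearman correlations are descriptions. Those of Col4a1 were Col4a2 (0.90), Nfib (0.87) and Tcaf1 (0.87), and those of Col4a2 were Col4a1 (0.90), Tcaf1 (0.86) and Dmwd (0.85). Those of Col4a3 were Pafah2 (0.85), Glis2 (0.85) and Cldn12 (0.84), and those of Col4a4 were Cdo1 (0.91), Ptprf (0.90) and Ccdc141 (0.90). Col4a5 was nearest to Col4a4 (0.88), Ptprf (0.87) and Glis3 (0.86). The head-to-head pair Col4a1 and Col4a2 were thus each other's nearest gene, whereas Col4a3 and Col4a4 were not, with 0.80 between them. Fn1 had Stom (0.73), Adcy4 (0.69) and Celf4 (0.67) as nearest genes, and Cd93 had Gngt2 (0.83), Abi3 (0.80) and BC028528 (0.80).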

How the data were processed

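The 6 kidneys (3 groups of 2) were grouped by the labels. The authors deposited, per kidney, a matrix of whole UMI counts per gene and barcode, made with Cell Ranger on mm10 per the labels (3.0.1 per the file headers of the grafts; the version for naive kidneys is not given in the sources used here). A barcode was kept from 500 UMIs and 250 genes upward if no more than 50% of its UMIs were mitochondrial, over 28208 shared genes. Doublets were ranked by Scrublet and left out at 0.8% per 1000 cells, because the tool's own calls were 2 to 288 per kidney. Scanpy 1.11.5 gave 2500 variable genes, 40 components, 20 neighbours and Leiden clusters (resolution 1.5), named from at least 3 markers; a stromal cluster was clustered again. Counts were summed per kidney and class (at least 10 cells) and tested with edgeR 4.0.16 (quasi-likelihood, TMM, all 3 groups in 1 fit, FDR 0.05), after tests on simulated data. DESeq2 1.42.0 was an alternative, with others on filters, doublets, clusters, scaling and left-out kidneys. The members and lists were chosen with earlier results of these data known. Of the matrix lists, at most the 3 genes with the largest change among those past the FDR were named per list, class and comparison, and for likeness the 3 nearest genes. The study ran 2 experiments, and the labels do not say that replicate numbers mark them. Correlations of deviations between kidneys with the same number were -0.18 to 0.086. The reported fit had no block by design, and the closing section gives the counts with one.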

Additional observations from a re-analysis of the deposited data

Results flagged for a closer look

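Differences that ran in opposite directions in different cell classes under the same comparison are listed here as fitted log2 values; the difference between classes was not tested. For Col4a1 in rejecting against naive kidneys, the value was 1.80 in proximal tubule, 0.83 in distal convoluted tubule, 0.61 in principal cells of the collecting duct and 3.20 in endothelium, but -0.73 in intercalated cells. For Col4a2 in the same comparison it was 0.97 in proximal tubule and 2.99 in endothelium, but -0.50 in loop of Henle and -0.76 in intercalated cells. For Col4a2 in tolerized against naive kidneys it was 0.68 in proximal tubule and 2.60 in endothelium, but -0.70 in principal cells and -0.81 in intercalated cells. For Fn1 it was 4.45 in proximal tubule and -1.10 in macrophage/monocytes when rejecting kidneys were set against naive ones, and 2.53 and -1.27 when tolerized ones were. The negative values did not pass FDR 0.05 by edgeR, and neither did the 0.61 of Col4a1 in principal cells (FDR 0.086).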

How the results depend on the processing

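Of 2184 single values under the alternatives, 2119 had the same call as in the main design, 40 newly passed and 24 no longer passed, and values that never passed could change sign. In 1 case a call came with the opposite sign: Fn1 in macrophages, tolerized against rejecting, was -0.10, and -0.98 to 2.96 with 1 kidney left out, 2.96 without rejecting replicate 2. The alternatives did not all test the same 41 pairs of a member and a class, so the counts below are not all out of 41. With no filter on low counts 66 pairs were tested. Keeping called doublets added pairs in stroma, and leaving out some kidneys added pairs such as Col1a1 in macrophages. No share over all genes is given beside these counts. Of the 41 member and class pairs, 7 passed in rejecting against naive kidneys; the count was 14 with no filter on low counts, 14 with called doublets kept, 11 with library totals without TMM (chosen after seeing the data) and 4 to 11 with 1 kidney left out (4 without naive 1, 11 without tolerized 2). For tolerized against naive it was 6, and 1 to 8 with 1 kidney left out (1 without naive 1, 2 without naive 2). For tolerized against rejecting it was 0, with 2 by DESeq2 and 2 of 66 with no filter. It moved off 0 without rejecting 2 and without tolerized 1. It was also above 0 with doublets kept, where rejecting 2 was the only rejecting kidney in stroma. There Col1a1 differed by -5.57 on the log2 scale, with the Dcn-led cells of rejecting 2 among the stromal cells. Counts of the matrix lists were 116, 87 and 3; leaving out 1 kidney gave 57 to 141, 27 to 102 and 3 to 18 (57 without naive 2, 60 without naive 1, 27 without naive 2, 31 without naive 1, 18 without tolerized 1, 11 without rejecting 2). The last was 7 by DESeq2, 35 with no filter, 16 with doublets kept, 1 at up to 20% mitochondrial UMIs, 7 at 30 or more cells and 6 with library totals. With the replicate block the members' counts stayed 7, 6 and 0 and the third list count was 6. Over clusters present in every kidney (chosen after seeing the data), the members' counts were 5, 4 and 0 of 31 pairs. The median share of proximal tubule cells with a Col4a1 UMI in rejecting kidneys was 31.7%, and 7.22% after thinning to 1000 UMIs. Where not set by the alternative's construction, the cause was not tested. The naive macrophage sums held 86090 and 301982 UMIs, in which 0 Fn1 UMIs allow up to 34.8 and 9.93 CPM.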
